A study of Mus musculus with 4 samples.

Results

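The semaphorins and their receptors were examined across the cell types of the cerebral cortex of glutathione-depleted mice. All genes of the feature tables whose symbols mark them as a semaphorin of classes 3 to 7, a plexin or a neuropilin were taken, whatever their values, which gave 31 of 32285 genes. Of these, 20 encode ligands (Sema3a to Sema3g, Sema4a, Sema4b, Sema4c, Sema4d, Sema4f, Sema4g, Sema5a, Sema5b, Sema6a to Sema6d and Sema7a) and 11 encode receptors (Plxna1 to Plxna4, Plxnb1 to Plxnb3, Plxnc1, Plxnd1, Nrp1 and Nrp2).

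Semaphorins are guidance proteins that repel or attract growing axons and migrating cells, and in the adult brain they act on synapses, myelinating cells and immune cells. Class 3 members are secreted, class 4, 5 and 6 members span the membrane, and Sema7a is anchored to it by a lipid. Plexins are the signalling receptors, whose cytoplasmic part acts on small GTPases of the Ras family, and the neuropilins Nrp1 and Nrp2 bind most secreted semaphorins together with a plexin and also bind vascular endothelial growth factor.

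Nuclei were taken from regions of the cerebral cortex that were rich in rod-shaped microglia, sorted for DAPI staining and sequenced from the 3′ end of the RNA on the 10x Genomics platform (single-nucleus RNA-seq). All 4 mice were Gclc-KO, a cross of floxed GCLC mice with CaMKII-Cre mice, in which Gclc, the catalytic subunit of the enzyme that starts glutathione synthesis, is deleted where the CaMKII promoter drives Cre, mainly in forebrain excitatory neurons, and not in glia. They received no treatment and were 3 months old (libraries 3M-1 and 3M-2) or 6 months old (libraries 6M-1 and 6M-2), with 1 mouse in each library. Both ages carried the deletion and no wild-type library was used here, so the values describe Gclc-KO cortex and the 2 ages within it, not an effect of the deletion. Where values of the libraries follow each other, those at 3 months come before those at 6 months, and replicate 1 before replicate 2.

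Of 30784 deposited nuclei, 30515 passed the authors' filter, with between 59262228 and 65894316 UMIs in a library, where a UMI (unique molecular identifier) stands for an RNA molecule captured. Each nucleus was placed in a class by the number of fixed cell type markers it held, none of them a semaphorin, plexin or neuropilin; 21614 nuclei were placed and 8901 were not. The classes tested held 2280 to 3366 excitatory neuron-like nuclei in a library, 579 to 777 inhibitory, 891 to 1626 oligodendrocyte-like, 157 to 243 OPC-like (oligodendrocyte precursors), 39 to 80 astrocyte-like and 457 to 845 microglia-like nuclei, and each class had UMIs of every marker on its own list. Neuronal RNA was present outside neurons: the summed level of the excitatory marker list was 1152 to 1249 CPM, which scales a gene's UMIs to the total of the class in that library, in excitatory nuclei, 383 to 451 CPM in microglia, 169 to 315 CPM in oligodendrocytes, 140 to 230 CPM in OPCs and 109 to 265 CPM in astrocytes. Its part in the results below was not tested. The targeted gene, Gclc, was read at 42.4, 33.6, 32.4 and 35.8 CPM in excitatory nuclei and at 47.4, 41.8, 37.8 and 42.3 CPM in inhibitory nuclei, which does not check the labels, since 3′ reads need not cover the deleted exons. A total of 93 barcodes occurred in 2 libraries.

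The members were first compared among the 6 classes, to ask where ligands and receptors were transcribed. UMIs were summed per library and class and tested with edgeR's quasi-likelihood test, with the mouse as a block and p-values adjusted over all genes by the Benjamini-Hochberg method, and a gene was called at an adjusted p under 0.05. All 29 members that passed the filter on low counts differed among the classes, 18 ligands and 11 receptors, but so did 91.2% of all genes tested. Of the members that failed the filter, Sema3b had 38 UMIs over the 6 classes and Sema3g had 6. Each library is 1 mouse, and with the mouse as a block the p-values measure how the differences between classes vary over these 4 libraries.

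**Figure D1:**
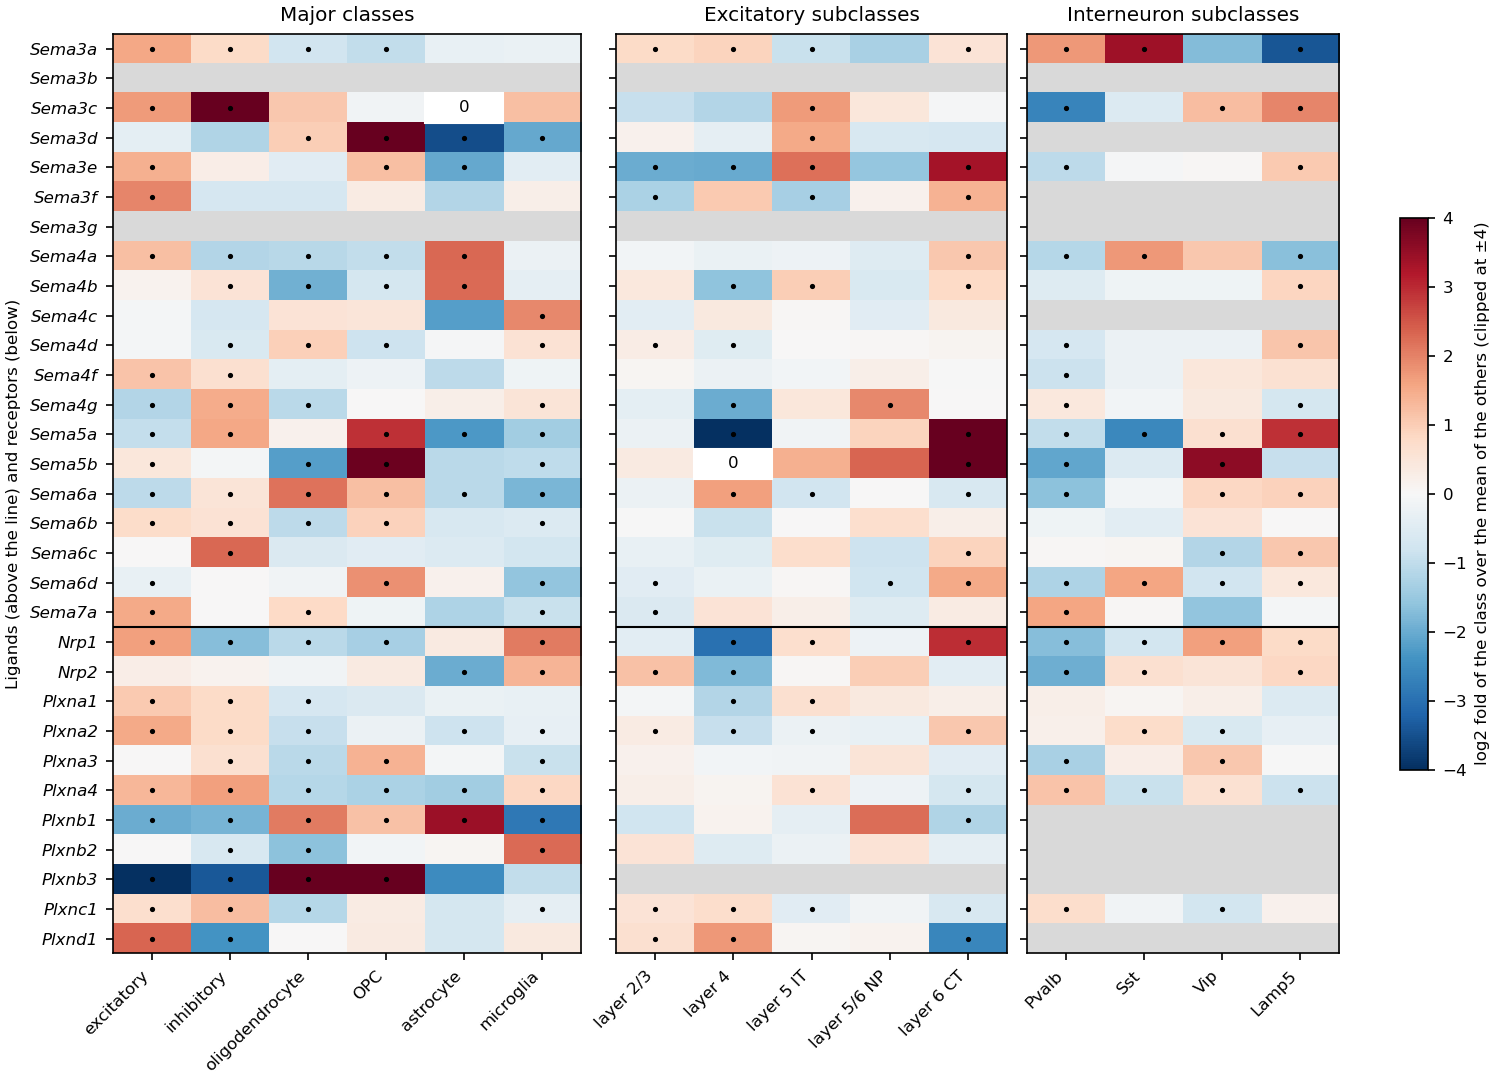
Log2 fold change of each member in a class over the unweighted mean of the log levels of the other classes of the same panel. Panels are major classes, excitatory subclasses and interneuron subclasses, with ligands above the line and receptors below it. Dots mark calls at an adjusted p under 0.05, grey cells were not tested, and white cells with 0 mark a class without a UMI of that gene. Among major classes the colours reach the upper limit of 4 for Plxnb3 in both oligodendrocyte stages, for Sema3d in OPCs and for Sema3c in inhibitory nuclei, and the colours beside a 0 rest in part on it.

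Each class was then set against the mean of the other 5, taken over their log levels. A class with few or no UMIs of a gene lowers that mean. A class can therefore be called higher while another class has a higher level. Excitatory nuclei had higher levels of 15 members (9 ligands and 6 receptors), with 33.4% of all genes called higher, and lower levels of 6 (29.1% of all genes). Inhibitory nuclei had 14 members higher (background 29.7%) and 7 lower (25.1%). In oligodendrocytes 6 members were higher (27.2%) and 13 lower (25.3%), and in OPCs 10 were higher (18.1%) and 6 lower (15.4%). Astrocytes, the shallowest class, had 3 higher (13.6%) and 8 lower (15.7%), and microglia had 7 higher (27.6%) and 11 lower (23.2%). By medians over the members tested, receptors stood above ligands in excitatory nuclei, at a log2 fold change of 0.678 against 0.297, and below them in oligodendrocytes, at −0.907 against −0.412, while the medians over all genes tested were 0.004 and 0.003. These medians are descriptions and were not compared by a test.

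In the oligodendrocyte lineage, Sema3d and Sema5b had the highest fold changes among ligands in the precursors, and the plexin Plxnb3 was called higher in both stages. OPCs had the highest levels of Sema3d, Sema5b and Sema5a of the 6 classes, and oligodendrocytes the highest of Plxnb3 and Sema6a, by the mean over libraries. Plxnb3 encodes a plexin that binds Sema5a and is known from oligodendrocytes, and Sema6a is a membrane-bound ligand of Plxna2 and Plxna4. The promoters of the leading ligand, the leading lineage receptor and the leading astrocyte receptor are shown here. The lineage's regulator SOX10 binds SOX-type sites with the letters ACAAAG. The astrocyte receptor, Plxnb1, was also called higher in both oligodendrocyte stages, so it is not a contrast from outside the lineage. Each line gives the 250 bases before the RefSeq start site (GRCm38.p6), with ACAAAG or its reverse complement CTTTGT in capitals.

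Sema3d promoter, chr5:12382916-12383165, plus strand: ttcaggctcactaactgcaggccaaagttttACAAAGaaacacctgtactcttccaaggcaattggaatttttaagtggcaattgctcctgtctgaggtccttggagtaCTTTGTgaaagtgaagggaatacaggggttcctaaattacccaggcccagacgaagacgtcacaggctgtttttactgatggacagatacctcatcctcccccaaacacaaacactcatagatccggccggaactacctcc

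Plxnb3 promoter, chrX:73756853-73757102, plus strand: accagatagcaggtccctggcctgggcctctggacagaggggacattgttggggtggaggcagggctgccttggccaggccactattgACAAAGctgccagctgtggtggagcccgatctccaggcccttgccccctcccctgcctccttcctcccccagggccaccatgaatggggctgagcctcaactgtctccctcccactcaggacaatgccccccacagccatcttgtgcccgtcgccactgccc

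Plxnb1 promoter, chr9:109095186-109095435, plus strand: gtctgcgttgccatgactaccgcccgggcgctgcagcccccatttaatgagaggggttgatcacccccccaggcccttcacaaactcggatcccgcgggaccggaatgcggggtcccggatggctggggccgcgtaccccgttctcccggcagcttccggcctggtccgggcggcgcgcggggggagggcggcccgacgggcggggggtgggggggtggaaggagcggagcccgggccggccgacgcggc

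Either form occurred at 2 positions of the Sema3d promoter, 219 and 141 bases before the start, at 1 position of the Plxnb3 promoter, 162 bases before it, and at none of the Plxnb1 promoter. These 6 letters were found on either strand in 16.5% of 32851 mouse promoter windows of this length and in 5 of the 37 windows that matched 26 of the members (13.5%). A match of letters is a description of the window and not a binding site.

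Sema3d, a secreted ligand that signals through neuropilins, was read at 314, 298, 311 and 410 CPM in OPCs and at 15.8, 20.7, 13.5 and 11.5 CPM in oligodendrocytes. Every OPC sum lay above every sum of the other classes, and the log2 fold change over the mean of the other classes was 6.22 ± 0.14 (SE, n = 4 libraries; adjusted p = 3.26e-24). Sema5b, a membrane-bound ligand known for repelling axons, stood at 380, 249, 305 and 319 CPM in OPCs, which was again above all other class sums and gave 3.91 ± 0.16 (adjusted p = 7.42e-18). In oligodendrocytes Sema5b was low, at 1.35, 12.4, 8.41 and 10.3 CPM.

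Sema5a was read at 240, 233, 323 and 229 CPM in OPCs, above its 97.1, 122, 113 and 110 CPM in the pooled inhibitory class. The log2 fold change was 2.91 ± 0.15 (adjusted p = 1.63e-15). Lamp5 interneurons, a subclass compared below, stood above OPCs in every library, at 401, 452, 431 and 384 CPM. Sema6d, a transmembrane ligand of Plxna1, reached 1040, 1180, 1090 and 1150 CPM in OPCs, and no other major class exceeded 547 CPM. Among the neuronal subclasses compared below, Sst interneurons stood at 560, 745, 682 and 631 CPM and layer 6 CT neurons at 475, 473, 578 and 566 CPM. The fold change of Sema6d in OPCs was 1.83 ± 0.11 (adjusted p = 2.31e-14). OPCs were also called higher for Plxnb3, Sema6a, Sema3e, Plxnb1 and Sema6b, with log2 fold changes of 4.87, 1.22, 1.21, 1.18 and 0.93, and for Plxna3 (adjusted p = 4.23e-06).

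Plxnb3 was read at 222, 155, 95.7 and 131 CPM in oligodendrocytes and at 114, 74.2, 59.5 and 68.6 CPM in OPCs. In the pooled excitatory and inhibitory classes it did not exceed 0.818 CPM in any library, and the log2 fold change in oligodendrocytes was 6.16 ± 0.12 (adjusted p = 1.22e-26). In both stages the highest of the 4 values came from 3M-1 and the lowest from 6M-1. Sema6a stood at 282, 316, 294 and 225 CPM in oligodendrocytes, above all sums of the other major classes, with a fold change of 2.18 ± 0.10 (adjusted p = 3.69e-17). Among the neuronal subclasses compared below, Lamp5 nuclei stood at 300, 171, 181 and 179 CPM and Vip nuclei at 146, 149, 212 and 244 CPM. Lamp5 nuclei thus exceeded oligodendrocytes in 3M-1, and Vip nuclei did in 6M-2. Sema4d, a transmembrane semaphorin of immune cells and oligodendrocytes that binds Plxnb1, was read at 156, 131, 142 and 122 CPM in oligodendrocytes. It rose by 0.97 ± 0.08 over the other classes (adjusted p = 4.71e-11). Plxnb1, Sema3d and Sema7a were also called higher in oligodendrocytes, with log2 fold changes of 2.08, 0.99 and 0.79. For Sema3d this is against the mean of log levels: it stood at 11.5 to 20.7 CPM in oligodendrocytes, below the 298 to 410 CPM of OPCs.

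**Figure D2:**
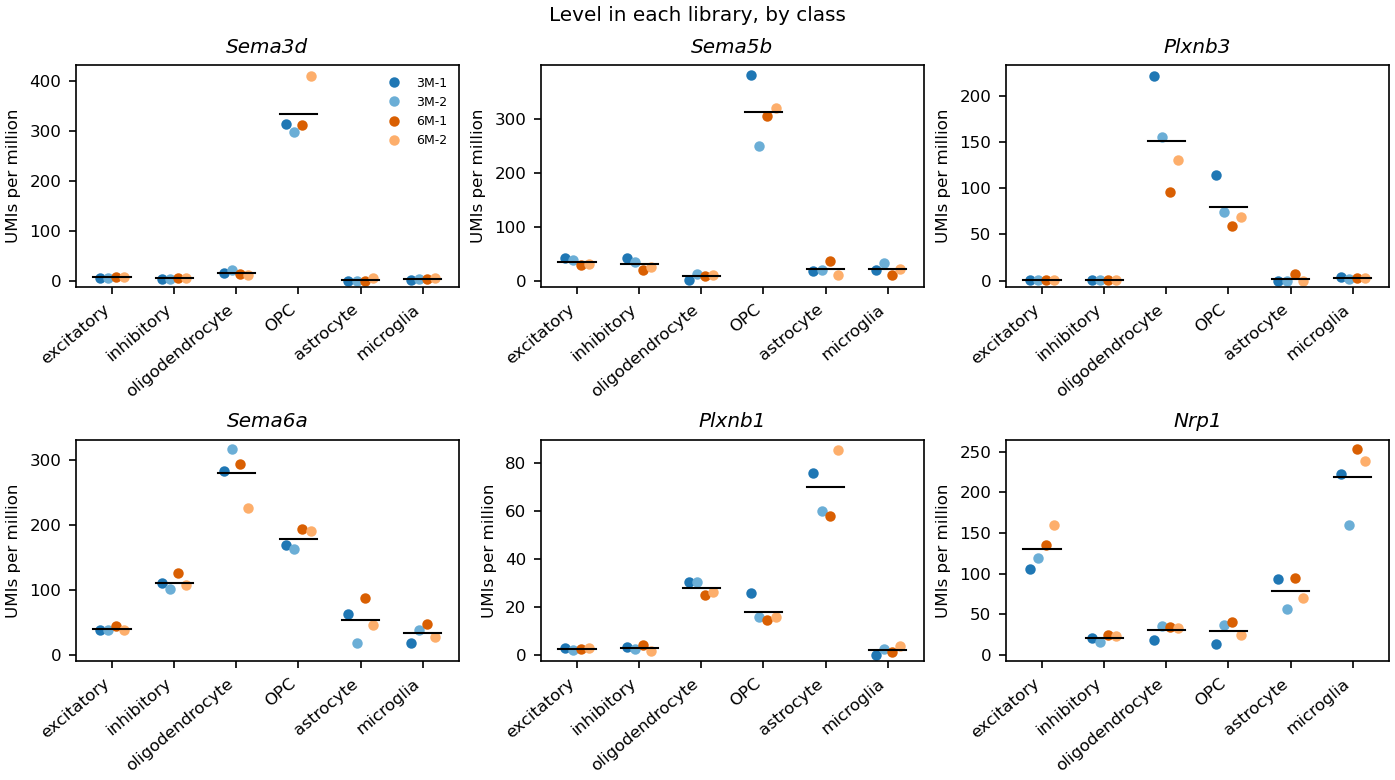
CPM (linear axis from 0) of 6 members in each of the 4 libraries, by major class; points are libraries, coloured by age and replicate, and the black lines are means. Sema3d and Sema5b stand out in OPCs, Plxnb3 in both oligodendrocyte stages, Sema6a most in oligodendrocytes, Plxnb1 in astrocytes and Nrp1 in microglia and excitatory neurons.

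Set directly against OPCs, oligodendrocytes were lower for 12 of 29 members (20.3% of all genes) and higher for 5 (21.3%). The ligands Sema5b, Sema3d and Sema5a were lowest relative to OPCs, with log2 fold changes of −5.08 ± 0.25, −4.36 ± 0.17 and −2.29 ± 0.18 (adjusted p = 2.28e-16, 1.24e-18 and 9.05e-12). Plxna3, Sema6d, Sema6b, Sema3e, Plxnb2, Plxnc1, Sema4b, Sema4g and Plxna2 were lower by between 0.56 and 2.06 on the log2 scale. Those higher in oligodendrocytes were Sema4d at 1.49 ± 0.13, Plxnb3 at 1.08 ± 0.12, Sema7a at 0.81, Sema6a at 0.80 and Plxnb1 at 0.75 (adjusted p = 1.31e-10, 1.5e-08, 0.00887, 2.48e-05 and 0.0134). Without library 3M-2, 3 members were called higher. The share of all genes called in that fit is not given, so this count describes the members only.

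Astrocytes differed from the other classes in a receptor and a pair of class 4 ligands. Plxnb1, the receptor of Sema4d, was read at 75.8, 59.8, 58 and 85.4 CPM. It stood at 14.6 to 30.3 CPM in the oligodendrocyte lineage and at 3.94 CPM or less in microglia and the pooled excitatory and inhibitory classes. Its log2 fold change was 3.43 ± 0.31 (adjusted p = 3.73e-10). Sema4a, a membrane-bound ligand also known from immune cells, stood at 114, 67.2, 72.5 and 70.3 CPM and Sema4b at 80, 56, 58 and 65.3 CPM, and for both every astrocyte sum was above every sum of the other classes. Their fold changes were 2.30 ± 0.23 and 2.27 ± 0.28 (adjusted p = 4.15e-09 and 1.83e-07). The class held 842194 UMIs in all, and Sema3c had no UMI in it, which allows a level of up to 3.56 CPM (3 UMIs, counting error only).

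In microglia 4 receptors and 3 ligands were called higher, and 4 receptors and 7 ligands were called lower. Microglia had the highest levels of Plxnb2, which binds class 4 semaphorins and angiogenin, of Nrp1 and of Nrp2, and of the ligand Sema4c, which binds Plxnb2. Plxnb2 was read at 38.3, 31.9, 33 and 36.2 CPM, above all other sums, and its log2 fold change was 2.27 ± 0.17 (adjusted p = 3.3e-12). Nrp1 (chr8:128358604-128503363, plus strand, GRCm38) was read at 223, 160, 253 and 239 CPM, against 105, 119, 135 and 160 CPM in excitatory nuclei. Within each library microglia stood above the pooled excitatory class, although the ranges met at 160 CPM. Layer 6 CT (corticothalamic) neurons, an excitatory subclass compared below, stood above microglia in every library, at 304, 382, 342 and 366 CPM. The fold change of Nrp1 in microglia over the mean of the classes was 2.08 ± 0.11 (adjusted p = 5.44e-16). Nrp2 stood at 117, 104, 101 and 125 CPM, above every other sum, with 1.36 ± 0.13 (adjusted p = 3.03e-10).

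Sema4c, at 15.5, 17.1, 10 and 12.9 CPM, rose by 1.91 ± 0.28 in microglia (adjusted p = 1.45e-06), but 1 OPC sum reached the same 12.9 CPM. Sema4d at 181, 108, 122 and 123 CPM and Sema4g at 21.6, 24.5, 21.7 and 23.7 CPM were called higher by 0.57 and 0.51. Plxna4, a plexin that is abundant in neurons, was also called higher, by 0.82 ± 0.12 (adjusted p = 7.16e-07), at 377, 422, 298 and 297 CPM. The excitatory marker list in microglia stood at 0.312 to 0.377 of its level in excitatory nuclei, while the Plxna4 level in microglia was 0.83 to 1.11 times the excitatory level, that of Nrp1 1.34 to 2.12 times and that of Plxnb2 3.81 to 5.3 times. The ratios of Plxna2 (0.365 to 0.532) and Sema7a (0.16 to 0.428) overlapped that of the marker list. So did those of Sema3a (0.284 to 0.674), Sema3e (0.196 to 0.664), Sema4a (0.323 to 0.699) and Sema5b (0.359 to 0.847). Those of Sema3b, Sema3d, Sema3f, Plxnb1 and Plxnd1 overlapped it too.

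Among the 6 receptors higher in excitatory nuclei, Plxnd1, which Sema3e binds without a neuropilin, had the highest fold change, and the 9 ligands higher there were both secreted and membrane-bound. Plxnd1 was read at 27.4, 31.4, 26.7 and 23.3 CPM, above the 17.1 CPM that no other class exceeded, with a log2 fold change of 2.34 ± 0.12 (adjusted p = 1.71e-15). Sema3a, a secreted ligand that collapses growth cones, stood at 51, 81.4, 49.4 and 58.5 CPM and rose by 1.53 ± 0.10 (adjusted p = 2.75e-13), with the inhibitory sums at 37.8 to 62.3 CPM overlapping it. Nrp1 (1.65), Plxna2 (1.51), Sema7a (1.51), Sema3e (1.42), Plxna4 (1.34), Sema4a (1.19), Sema4f (1.15) and Plxna1 (1.05) were also called higher. Plxna2 overlaps another annotated gene on its strand, so its reads may be shared.

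The pooled inhibitory class was marked by Sema3c, a secreted ligand of the neuropilins and Plxnd1. It was read at 24.9, 37.9, 41.3 and 47 CPM, against 9.15 CPM or less in any other major class tested. Not all interneurons shared this level. Pvalb nuclei, a subclass compared below, stood at 10.2, 13.9, 3.45 and 9.21 CPM, against 4.48 to 7.05 CPM in excitatory nuclei. Since astrocytes had no UMI of Sema3c, its fold change was taken from the fit without astrocytes, where it was 3.06 ± 0.15 (adjusted p = 3.51e-14). In that fit the call of Sema3c in excitatory nuclei was lost, at −0.01. Plxna4 reached 461, 517, 432 and 499 CPM, above all sums of the other major classes, and rose by 1.64 ± 0.11 (adjusted p = 2.54e-13). Sema6c (22.2, 24.4, 19.7 and 22.4 CPM; 2.29), Sema5a (1.56), Sema4g (1.49) and Plxnc1 (1.23) were higher too.

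The next comparison asked how the members differed among excitatory neurons of different layers, which were placed by layer markers: layer 2/3, layer 4, layer 5 IT (intratelencephalic), layer 5/6 NP (near-projecting) and layer 6 CT (corticothalamic). Of 28 members tested, 24 differed among the 5 subclasses, against 43.4% of all genes; Sema4c, Sema4f, Sema6b and Plxna3 did not pass. Layer 6 CT nuclei had 11 members higher, 9 of them ligands (15.1% of all genes higher), and 5 lower (11.6%). Layer 5 IT had 7 higher (8.69%) and 5 lower (2.70%), layer 2/3 had 6 higher (14.4%) and 4 lower (6.93%), and layer 4 had 4 higher (8.59%) and 10 lower (7.77%). Layer 5/6 NP, with 11 to 35 nuclei in a library that also held other layers' markers, had 1 higher, Sema4g (2.19%), and 1 lower, Sema6d (2.54%). In layer 6 CT the median log2 fold change was 0.471 over ligands and −0.446 over receptors, and 0.063 over all genes.

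Layer 6 CT neurons combined high Sema3e, Sema5a, Sema5b, Sema6d and Nrp1 with low Plxnd1. Sema3e, the ligand of Plxnd1, was read at 190, 227, 133 and 193 CPM in layer 6 CT, at 86.5, 107, 81.7 and 117 CPM in layer 5 IT and at 5.2, 6.92, 17.2 and 14.1 CPM in layer 2/3. The 3 ranges did not overlap, and the log2 fold changes over the other subclasses were 3.34 ± 0.18 in layer 6 CT, 2.22 ± 0.21 in layer 5 IT and −1.998 ± 0.41 in layer 2/3 (adjusted p = 4.25e-16, 8.74e-10 and 0.000366). Sema3e lies on chr5:14025276-14256689, plus strand, and Plxnd1 on chr6:115954811-115995005, minus strand (GRCm38). Its receptor Plxnd1 was lowest in layer 6 CT, at 4.91, 9.6, 6.89 and 1.85 CPM, and highest in layer 4, at 64.9, 68.5, 58.3 and 56.2 CPM, with 32.8, 30.9, 36.5 and 36.1 CPM in layer 2/3. Its fold changes were −2.60 ± 0.23, 1.72 ± 0.21 and 0.63 ± 0.15 (adjusted p = 6.27e-11, 2.1e-07 and 0.00182).

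**Figure D3:**
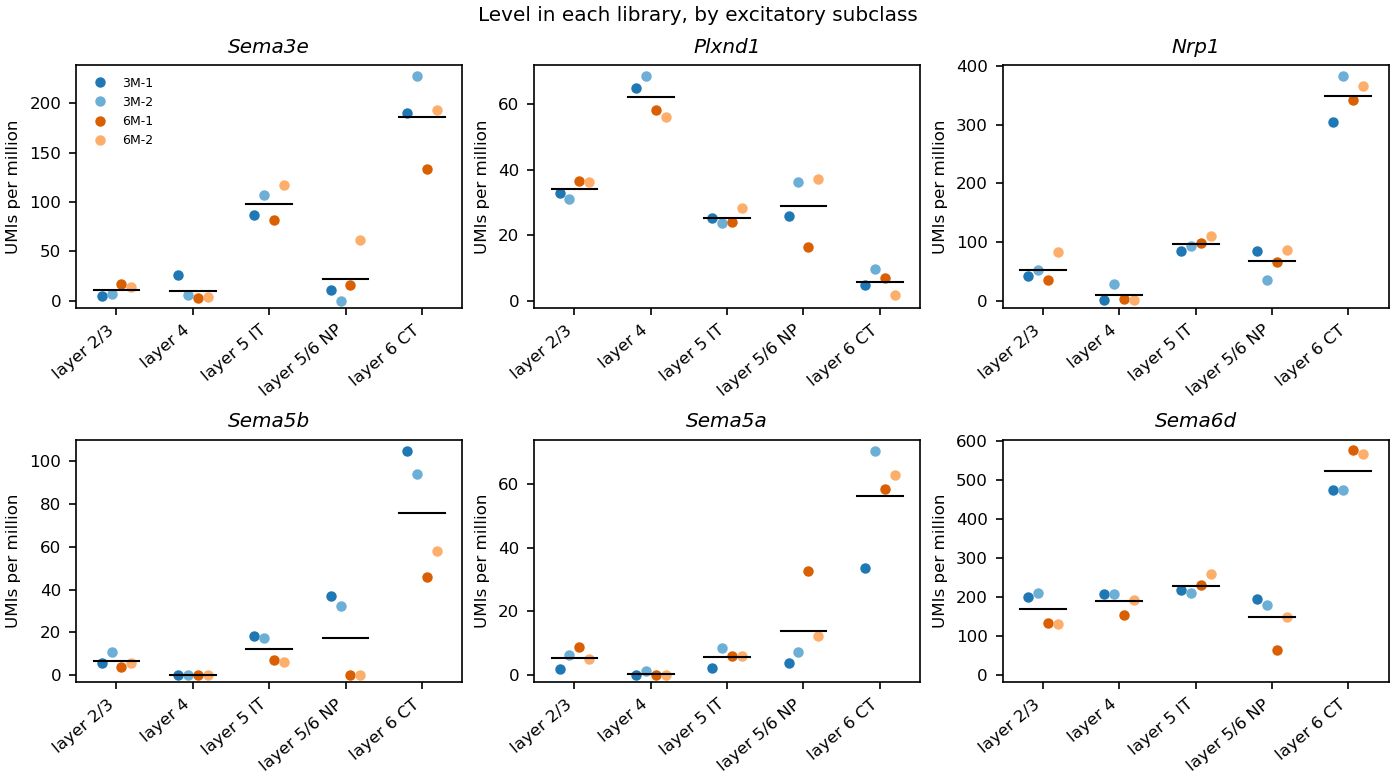
CPM (linear axis from 0) of 6 members in each of the 4 libraries, by excitatory subclass; points are libraries and black lines are means. Sema3e is high in layers 5 IT and 6 CT, where Plxnd1 is lower than in layer 4, and Nrp1, Sema5b, Sema5a and Sema6d are highest in layer 6 CT.

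Nrp1 was read at 304, 382, 342 and 366 CPM in layer 6 CT, and no other subclass exceeded 111 CPM (2.96 ± 0.13, adjusted p = 3.35e-18). In layer 4 it stood at 2.16, 29.4, 2.78 and 2.16 CPM, with 3M-2 apart from the other libraries. Sema5a stood at 33.6, 70.6, 58.5 and 62.9 CPM in layer 6 CT, with 3M-1 the lowest, and Sema6d at 475, 473, 578 and 566 CPM, above all other sums (1.51 ± 0.10, adjusted p = 1.63e-13). Sema5b stood at 105, 94.1, 46 and 58 CPM, and layer 4 had no UMI of it, which allows up to 1.43 CPM. With only layers 2/3, 5 IT and 6 CT in the fit, the log2 fold changes in layer 6 CT were 3.05 ± 0.12 for Sema5b, 3.33 ± 0.12 for Sema5a, 2.58 ± 0.14 for Sema3e and 2.26 ± 0.09 for Nrp1 (adjusted p = 6.22e-13, 1.69e-13, 4.37e-11 and 6.15e-13). Sema3f (19.2, 10.3, 13.1 and 13.9 CPM), Plxna2 (1.09) and Sema4a (1.09) were also higher in layer 6 CT, and Plxna4 was lower (−0.70).

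Layer 4 was marked by Sema6a, at 86.5, 69.7, 147 and 95.2 CPM, with a log2 fold change of 1.65 ± 0.23 (adjusted p = 2.13e-06); its Sema3a (0.88) and Plxnc1 (0.70), the receptor of Sema7a, were also higher. In layer 2/3 Nrp2 was higher, at 41.5, 53.3, 63.2 and 46.8 CPM (1.16 ± 0.16, adjusted p = 7.38e-07), and so were Sema3a (0.75) and Plxnc1 (0.55). Layer 5 IT was higher for Plxna4, at 469, 549, 364 and 417 CPM (0.59 ± 0.08, adjusted p = 2.76e-06), although its range overlapped that of layers 2/3 and 4, and had more Sema3c (1.72), Sema3d (1.52), Sema4b (0.98) and Plxna1 (0.65). Nrp1 was called higher in layer 5 IT at 0.68, but it turned to −0.47 with the 3 largest subclasses alone and to −0.33 under a stricter gate, so no direction is given for it.

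Interneuron subclasses were compared in the same way. Of 22 members tested, 20 differed among Pvalb, Sst, Vip and Lamp5 nuclei, against 41.9% of all genes; Plxna1 and Sema6b did not pass. Pvalb nuclei had 5 members higher (17.9%) and 12 lower (15.6%), Sst nuclei 5 higher (10.1%) and 3 lower (7.62%), Vip nuclei 7 higher (8.69%) and 4 lower (7.26%), and Lamp5 nuclei 10 higher (10.9%) and 4 lower (9.46%). The ligand with the highest log2 fold change was Sema3a in Sst and in Pvalb nuclei, Sema5a in Lamp5 nuclei and Sema5b in Vip nuclei.

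Sema3a was read at 61.6, 118, 67.9 and 86.7 CPM in Sst nuclei and at 29.5, 60.3, 31.6 and 21.9 CPM in Pvalb nuclei, while Lamp5 nuclei did not exceed 5.19 CPM. The log2 fold changes were 3.39 ± 0.22 in Sst and 1.75 ± 0.28 in Pvalb nuclei (adjusted p = 8.42e-15 and 3.2e-06). Sema6d was also highest in Sst nuclei, at 560, 745, 682 and 631 CPM, with 1.58 ± 0.10 (adjusted p = 4.8e-15). Sema5a stood at 401, 452, 431 and 384 CPM in Lamp5 nuclei, above all other sums, with 2.92 ± 0.12 (adjusted p = 1.46e-20). Lamp5 nuclei also had the most Sema3c, at 57.5, 88.7, 107 and 179 CPM (1.97 ± 0.22, adjusted p = 5.03e-09), with Vip nuclei at 54 to 76.8 CPM overlapping them.

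Sema5b was read at 227, 154, 112 and 110 CPM in Vip nuclei, and the other subclasses did not exceed 26.8 CPM. Its log2 fold change was 3.58 ± 0.27 (adjusted p = 4.35e-13), from 29 to 44 nuclei in a library. Nrp1 rose by 1.65 ± 0.29 in Vip nuclei (adjusted p = 4.59e-05). Plxna4 was read at 699, 751, 740 and 817 CPM in Pvalb nuclei, above all other sums, with 1.13 ± 0.08 (adjusted p = 2.95e-14). Pvalb nuclei were lower for both neuropilins, with log2 fold changes of −1.71 ± 0.22 for Nrp1 and −1.96 ± 0.16 for Nrp2, and for Sema3c, with −2.65 ± 0.26 (adjusted p = 9.04e-08, 3.65e-12 and 1.21e-10).

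Because the study is about disease-associated microglia (DAM), microglial nuclei with UMIs of at least 4 of the DAM markers (79, 41, 113 and 90 nuclei) were set against the other microglia (427, 416, 732 and 574) of the same mouse. Both neuropilins were higher in the DAM-like nuclei. In all, 3 of 18 members were called higher (2.98% of all genes) and 0 lower (3.00%), and DESeq2 also called 0 lower. At an unadjusted p under 0.05, 2 were lower, and the share of all genes at that threshold is not given. The gate does not use the members, but Nrp1, Nrp2 and Plxnc1 stand on the study's own list of DAM genes, which was made from these samples, so their direction is not independent evidence.

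Nrp1 was read at 331, 282, 312 and 323 CPM in DAM-like nuclei and at 192, 141, 239 and 218 CPM in other microglia. It was higher in 4 of 4 mice, the ranges did not overlap, and the log2 fold change was 0.66 ± 0.12 (adjusted p = 0.00138). Nrp2 was read at 177, 192, 123 and 166 CPM against 100, 90.6, 95.6 and 115 CPM, again without overlap, with 0.67 ± 0.14 (adjusted p = 0.00446). Sema3a, a ligand of Nrp1, was read at 42.1, 28.2, 69.2 and 23.4 CPM against 12.7, 45.3, 24.8 and 15 CPM. It was higher in 3 of 4 mice and lower in 3M-2, the ranges overlapped, and its call at 0.99 ± 0.29 (adjusted p = 0.0407) was lost with DESeq2 (adjusted p = 0.293) and without 3M-1, 6M-1 or 6M-2 (0.176, 0.495 and 0.0674). Over all microglia its level was 0.284 to 0.674 of that in excitatory nuclei, which overlapped the ratio of the excitatory marker list.

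Plxnc1 was higher in 4 of 4 mice, at 56.1, 45.2, 77.6 and 36.2 CPM against 20.6, 35.9, 46.4 and 29.5 CPM, but missed the threshold (0.73 ± 0.22, adjusted p = 0.0512). It passed with a stricter gate (1.18, adjusted p = 0.011), without doublets called by Scrublet (1.37, adjusted p = 0.0184), with DESeq2's size factors (adjusted p = 0.0452) and without the filter on nuclei (adjusted p = 0.0497), and DESeq2 itself gave an adjusted p of 0.311. Plxna4 was at 250, 350, 283 and 251 CPM against 413, 432, 301 and 308 CPM, a log2 fold change of −0.33 ± 0.13 (adjusted p = 0.147). Leaving out doublets called by Scrublet gave −0.93 for it (adjusted p = 0.00181). Thinning microglial nuclei to 1000 UMIs left out 156 nuclei below that depth. The gate was then set at 2 DAM markers, which gave 97, 48, 179 and 127 DAM-like nuclei, so the group is not that of the main gate. In that fit Plxna4 was at −0.82 (adjusted p = 0.00127). Depth moved with the gate, at medians of 2885, 2518, 2492 and 2936.5 UMIs per DAM-like nucleus against 2214, 1559, 1748.5 and 2056, and the excitatory marker list was at 384 to 466 CPM against 359 to 461 CPM. After thinning, Nrp1 was at 1.02 ± 0.17 (adjusted p = 1.06e-05) and Nrp2 at 0.62 (adjusted p = 0.0555), and without the mouse as a block 0 members were called, with Nrp1 at an adjusted p of 0.092. The threshold of the gate divides neighbours: 125 nuclei held 4 markers and 170 held 3.

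**Figure D4:**
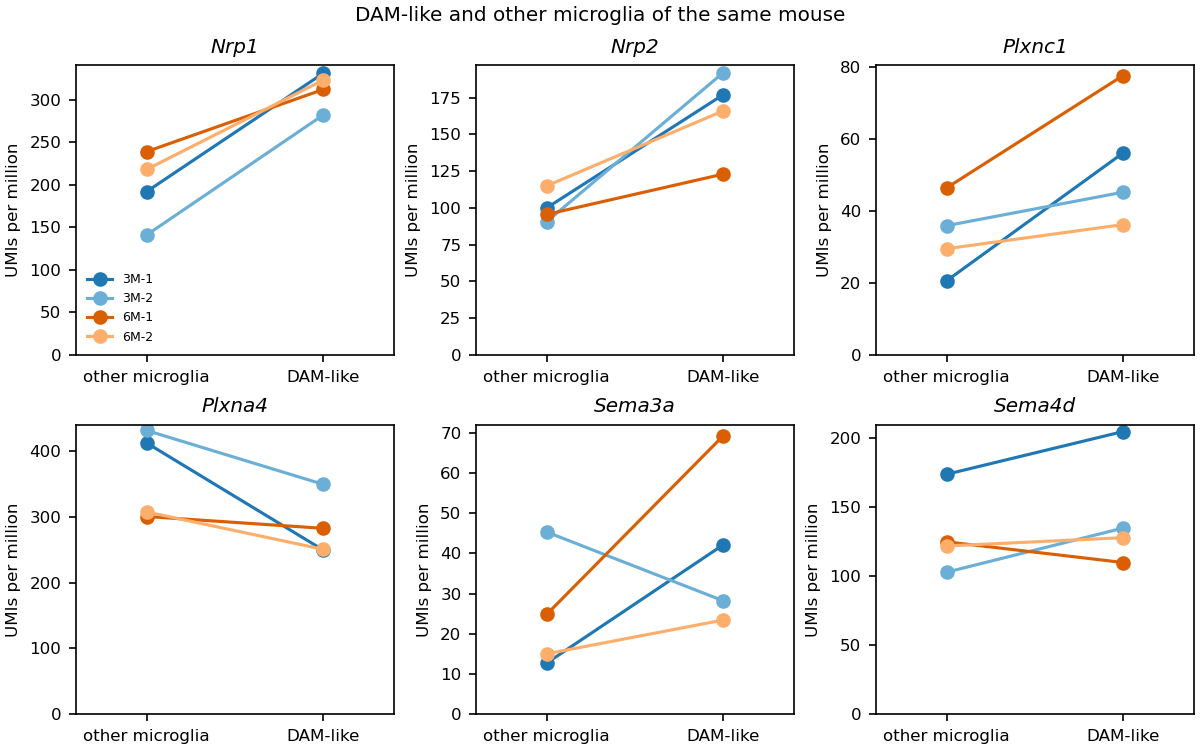
CPM (linear axis from 0) of 6 members in other microglia and in DAM-like nuclei, with a line joining the 2 values of each mouse. Nrp1, Nrp2 and Plxnc1 go up in all 4 mice and Plxna4 goes down in all 4, while Sema3a and Sema4d go up in 3 of 4.

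The ages were compared within each class, 6 months over 3 months, with 2 libraries against 2. No member was called in any class by edgeR. Of 237 tests of a member in a class, 29 had an unadjusted p under 0.05, 22 of 145 tests of ligands and 7 of 92 of receptors, and DESeq2 called 0 and had 15. The share of all genes called was 0.00541% in excitatory nuclei, 0.0148% in oligodendrocytes, 0.00972% in OPCs, 0.214% in layer 5/6 NP and 0% in inhibitory nuclei, astrocytes, microglia and the other 4 excitatory subclasses. Simulated data had the same dispersion for every gene, and only genes with enough counts in every library were changed. There, changes of 1 on the log2 scale between 2 and 2 libraries were recovered for 68% of genes in excitatory nuclei, 61% in microglia and 70% in astrocytes. The members' own spread and counts were not simulated, so these rates are not the power for the members. Differences of this size or smaller may have been missed, and larger ones too.

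Members with an unadjusted p under 0.05 numbered 4 of 29 in excitatory nuclei (5.62% of all genes), 3 of 27 in inhibitory nuclei (4.33%), 4 of 28 in oligodendrocytes (5.90%), 2 of 21 in OPCs (4.0%), 1 of 9 in astrocytes (4.20%) and 2 of 24 in microglia (6.50%). Among the excitatory subclasses there were 6 of 27 in layer 2/3 (5.43%), 2 of 10 in layer 4 (6.63%), 4 of 28 in layer 5 IT (5.83%), 0 of 7 in layer 5/6 NP (7.11%; DESeq2 called 0 there) and 1 of 27 in layer 6 CT (3.89%).

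The lowest p-values belonged to Sema5b in deep-layer neurons. In layer 5 IT it was read at 18.5 and 17.3 CPM at 3 months and at 7.21 and 5.92 CPM at 6 months. The ages did not overlap, and the log2 fold change was −1.45 ± 0.28 (adjusted p = 0.384). With the replicate number, which is also the batch number, as a block it was called (adjusted p = 0.0124), and within batches 1 and 2 it stood at −1.36 and −1.55. The replicates' differences were not shared between the ages in this subclass (correlation over genes −0.0886), so the block pairs libraries by number only. The share of all genes called in that fit is not given, so this call is not a result about Sema5b. In layer 6 CT Sema5b was read at 105 and 94.1 CPM against 46 and 58 CPM (−0.91 ± 0.19, adjusted p = 0.996; −1.19 and −0.70 within batches). In inhibitory nuclei it was read at 42 and 33.8 CPM against 19.2 and 25.5 CPM (−0.76 ± 0.22, adjusted p = 0.972; −1.13 and −0.41 within batches). In Vip nuclei Sema5b stood at 227 and 154 CPM against 112 and 110 CPM, and the ages overlapped in Pvalb, Sst and Lamp5 nuclei. Vip nuclei numbered 39 of 649 and 44 of 692 inhibitory nuclei at 3 months, and 33 of 777 and 29 of 579 at 6 months. Age was not tested within interneuron subclasses, nor was the part of this mix.

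In layer 2/3, Sema6d was at 199 and 209 CPM at 3 months and at 134 and 130 CPM at 6 months (−0.61 ± 0.16, adjusted p = 0.784), and Sema3e was at 5.2 and 6.92 CPM against 17.2 and 14.1 CPM (1.38 ± 0.31, adjusted p = 0.603). The ages did not overlap for either gene, and the batches gave −0.57 and −0.68 for Sema6d and 1.73 and 1.03 for Sema3e. Layer 2/3 nuclei made up 19.2% and 21.7% of excitatory nuclei at 3 months and 11.1% and 8.62% at 6 months, and the part of this difference in the values was not tested. Plxna4 in astrocytes was at 160 and 97.1 CPM against 43.5 and 50.2 CPM (−1.45 ± 0.43, adjusted p = 0.657, with −1.88 and −0.95 within batches). These sums held 38, 26, 6 and 10 UMIs. The astrocyte level was 0.139 to 0.448 of the excitatory level, which overlapped the 0.0937 to 0.212 of the excitatory marker list. Plxnb3 in oligodendrocytes was at 222 and 155 CPM against 95.7 and 131 CPM (−0.84 ± 0.25, adjusted p = 0.674; −1.21 and −0.24 within batches).

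Whether age differences themselves differed among the 6 classes was tested by an interaction term. No member was called, against 0.265% of all genes. An unadjusted p under 0.05 was found for 3 of 29, and the share of all genes at that threshold is not given. The lowest value was that of Plxna4 (adjusted p = 0.362). DESeq2 called 1 member in this test, also Plxna4. The share of all genes that DESeq2 called there is not given, so that call is not a result about Plxna4. The age results rested on single libraries to a large degree. With 3M-2 or 3M-1 left out, which leaves 1 library at 3 months, edgeR called members, more of them without 3M-2. It called none with either library at 6 months left out. The shares of all genes called in these fits are not given, so these calls are not a result about the members.

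**Figure D5:**
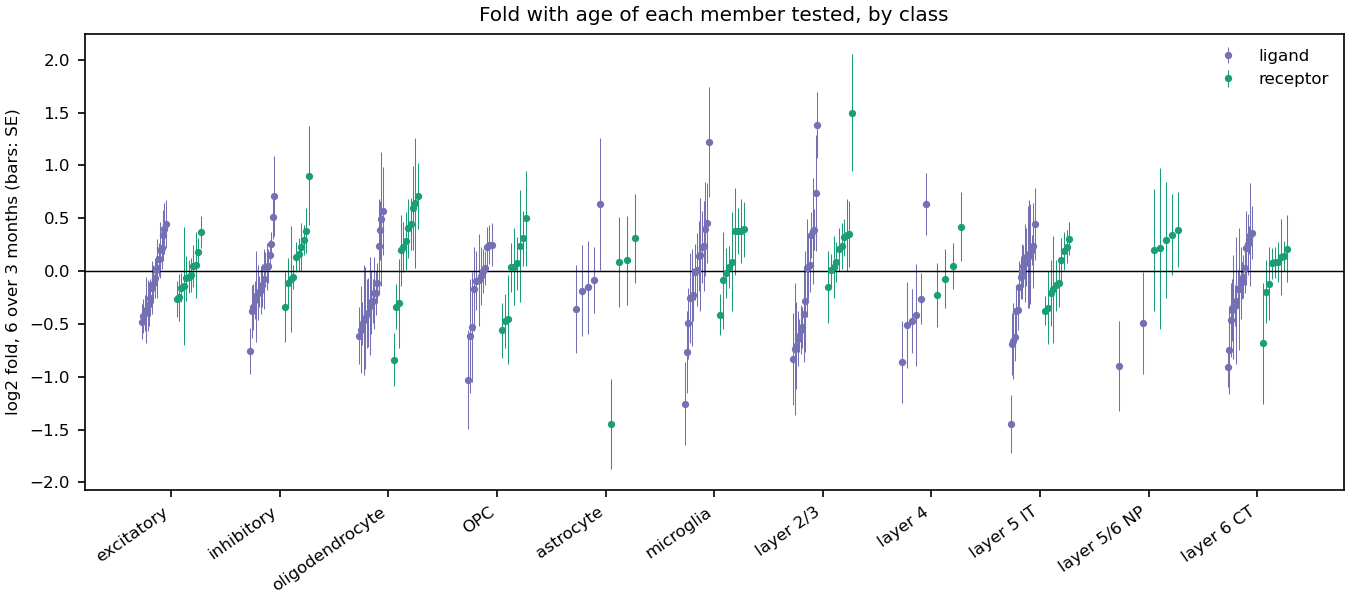
Log2 fold change with age (6 over 3 months) of each member tested, by class, with ligands in purple and receptors in green. Points are edgeR estimates, and bars are standard errors, taken as the size of the fold change over the square root of its F-statistic. Points beyond 1 in size include Sema5b in layer 5 IT (−1.45), Sema3e in layer 2/3 (1.38) and Plxna4 in astrocytes (−1.45), and none passed the threshold.

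A list of 54 genes taken as co-receptors and effectors of semaphorin signalling, such as the CRMP proteins (the Dpysl genes) and MICAL enzymes, was followed beside the members. The list counts Plxdc1 and Plxdc2 as effectors, but they are plexin domain proteins, and a part in semaphorin signalling was not tested. All 48 that were tested differed among the major classes, as did 91.2% of all genes. Against the mean of the other classes, excitatory nuclei had 18 of 49 higher and 15 lower (33.4% and 29.1% of all genes), and inhibitory nuclei had 15 and 14 of 49 (29.7% and 25.1%). Oligodendrocytes had 12 and 20 of 49 (27.2% and 25.3%) and OPCs 14 and 14 of 48 (18.1% and 15.4%). Astrocytes had 10 and 14 of 49 (13.6% and 15.7%) and microglia 17 and 16 of 49 (27.6% and 23.2%). In microglia Plxdc2, a plexin domain protein, and Trem2 and Tyrobp, which form a receptor complex with Plxna1, were higher by 3.38, 6.22 and 5.83 on the log2 scale. Trem2 and Tyrobp are also microglial genes. Plxna1 itself was low in microglia, at 6.8, 8.16, 10.7 and 8.32 CPM, against 12.8 to 15.7 CPM in excitatory and inhibitory nuclei. Between oligodendrocytes and OPCs, 13 of 48 were higher and 17 lower in oligodendrocytes (21.3% and 20.3% of all genes), led by Plxdc2 (3.16), Pak1 (2.99) and Dpysl2 (1.76) and by Dpysl3 (−4.43), Fyn (−1.85) and Trio (−1.93).

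In layer 6 CT neurons 8 of 43 effectors and co-receptors were higher and 6 lower (15.1% and 11.6% of all genes), with Ptk7 (3.31), Limk1 (2.56) and Dpysl5 (1.74) leading those higher and Mical3 (−1.10), Plxdc2 (−1.41) and Fyn (−0.55) those lower. In Sst nuclei 8 of 39 were higher (10.1% of all genes), led by Chl1, a co-receptor of Sema3a with Nrp1, at 1.11 ± 0.07 (adjusted p = 2.15e-14), and Chl1 was lower in Pvalb nuclei (−1.22). In DAM-like microglia 2 of 41 were higher (2.98% of all genes), the VEGF receptor Flt1 (2.44, adjusted p = 1.33e-07) and Plxdc2 (0.33, adjusted p = 0.0443). With age none of the list was called in any class by edgeR, and between 0 and 4 had an unadjusted p under 0.05.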

How the data were processed

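Nuclei of 4 Gclc-KO cortex libraries were sequenced at 2 ages. The authors aligned and counted reads with Cell Ranger 7.0.0 on mm10 and deposited UMI counts per gene and nucleus. Nuclei over 7000 genes or 1% mitochondrial UMIs were left out, as in the study; Scrublet (scanpy 1.11.5) marked 3.81 to 8.92% of a library as doublets, which were kept in the main results. A nucleus joined a class when at least 3 of its markers had a UMI and at least 2 times as many as for any other class; subclasses needed 2 markers. UMIs were summed per library and class (10 nuclei at least) and tested in R 4.3.3 with edgeR 4.0.16 (TMM scaling, quasi-likelihood, Benjamini-Hochberg over all genes, 0.05), with the mouse as a block between classes. The SE given with an edgeR fold change was its size divided by the square root of the test's F-statistic, and is not a spread over the mice. DESeq2 1.42.0, other filters, gates and left-out libraries were alternatives. Scripts were tested on simulated data. The replicate number equals the batch number in the labels and was used on that ground to pair the libraries across ages. Differences between the replicates of an age, not levels, were correlated over genes with those of the other age. The correlations were −0.0236 to −0.143, by class, so the replicates' differences were not shared between the ages. All members could be named, and of the effector and co-receptor list up to 3 genes in each direction with the smallest adjusted p. The members and lists were chosen with earlier results of these data known.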

Additional observations from a re-analysis of the deposited data

Results flagged for a closer look

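Vascular and meningeal nuclei were too few for a test and were outside every comparison, but held members above the level that 3 UMIs give in each class. In 19 endothelial-like nuclei (30005 UMIs over all libraries), Sema3g, an endothelial ligand, had 4 UMIs (133 CPM) and Sema3c had 27 (900 CPM), where 3 UMIs are 100 CPM. In 22 fibroblast-like nuclei (51679 UMIs), Plxna2 had 51 UMIs (987 CPM), where 3 UMIs are 58.1 CPM. Nuclei of the libraries were pooled for these values, counting error is the only error known, and no difference was tested.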

How the results depend on the processing

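Of 2749 values of 239 fold changes under an alternative, 2540 kept their direction and their side of the threshold, 185 no longer passed it, 18 newly passed it and 6 changed sign. These were Sema6d in excitatory nuclei without Scrublet doublets (0.017), Sema3c in excitatory nuclei without astrocytes (−0.0124), Plxna2 in layer 2/3 with the 3 largest subclasses (−0.0694), Nrp1 in layer 5 IT with a stricter gate (−0.3344) and with the 3 largest subclasses (−0.4699), and Sema6a in layer 6 CT with a stricter gate (0.2471). The fits without astrocytes and with the 3 largest subclasses were chosen after seeing the data; those fits hold fewer classes, and the cause of the other changes was not tested. Of 382 counts under an alternative, 352 were within 1.5 times the reported count. The share of all genes called under each alternative is not given, so the counts below describe the members only. Without the mouse block, 4 members were higher in layer 5 IT and 0 in DAM-like nuclei, and after thinning 1 was higher in DAM-like nuclei. In DAM-like nuclei 1 member was lower with the stricter gate, without Scrublet doublets and after thinning. Members higher in layer 5/6 NP numbered 2 with DESeq2's size factors, 4 without the filter on low counts and 4 with DESeq2. Without that filter, 1 member was called with age in oligodendrocytes, 1 in layer 2/3, 1 in layer 5 IT and 3 in the interaction with class, where DESeq2 called 1. With the replicate block, which pairs the libraries by batch, 1 member was called with age in layer 5 IT and it changed no other call. Leaving out each library in turn gave 3 to 5 members higher in oligodendrocytes than in OPCs and 0 to 1 higher in layer 5/6 NP. For age, where this leaves 1 library at an age, calls appeared in excitatory and inhibitory nuclei, oligodendrocytes, astrocytes and microglia. They also appeared in layer 5 IT, in layer 6 CT and in the interaction. Most came without 3M-2; the lone library of that age was then assumed to vary like the others. Depth limits the classes with few UMIs, where 3 UMIs are 4.0 CPM in layer 5/6 NP, 3.56 CPM in astrocytes, 3.28 CPM in Vip nuclei and 1.43 CPM in layer 4.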
